A study of Mus musculus with 33 samples.

Results

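The genes described here take glucose into the heart muscle cell and break it down: 35 genes chosen by symbol for glucose transport, glycolysis, lactate handling and glycogen turnover, of 32245 genes listed in each of 3 expression tables. RNA-seq measured them in mouse samples labelled as cardiomyocytes, with the molecule labelled nuclear RNA. Of the 33 samples of the series, 27 have a column in these tables, and 6 of a line with Ptpmt1 knockout alone were not analysed here. The study crossed cardiomyocyte-specific loss of Ptpmt1, a mitochondrial phosphatase of cardiolipin synthesis, with changes to the integrated stress response, in which kinases including Gcn2 and Hri phosphorylate the translation factor eIF2 alpha.

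In the FST line the groups were a double mutant (Ptpmt1 knockout with the Eif2a mutation), the Eif2a mutant alone, the Ptpmt1 knockout alone and a control, with 3 libraries each. In the PHT line they were a double knockout of Ptpmt1 and Hri (2 libraries), the Hri knockout alone (2), the Ptpmt1 knockout alone (3) and a control (2). In the PTGC line a double knockout of Ptpmt1 and Gcn2 (3) stood against a control (3), with neither single mutant beside it. In each line the group that carries both changes is called the double mutant. Every Ptpmt1 knockout is labelled cardiomyocyte-specific, as is the Hri knockout alone, while the double mutant is labelled only as a Hri knockout. Neither the Cre driver, the exact Eif2a allele, the alleles of the controls nor the ages could be taken from the labels.

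Glucose enters cells through GLUT transporters (the Slc2a genes) and is trapped as glucose 6-phosphate by hexokinase. Phosphofructokinase commits the sugar to glycolysis, the later enzymes harvest ATP, and lactate dehydrogenase with the monocarboxylate transporters exchanges pyruvate and lactate with the blood. The adult heart burns mainly fatty acids, whereas the fetal heart relies more on glycolysis, and several steps have a muscle isoenzyme beside one that is widely expressed.

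All 12 cardiomyocyte markers checked had reads in every library and together made up 4.07 to 7.06% of the signal. Summed fibroblast, endothelial, mural, macrophage and red cell markers made up at most 0.301, 0.161, 0.0808, 0.00981 and 0.161%, and no adipocyte marker passed the filter on low values. Ptpmt1 itself averaged 45.2 ± 4.87 normalized counts in the FST double mutant, 157 ± 6.69 in the Eif2a mutant, 35.5 ± 4.71 in Ptpmt1 knockouts and 163 ± 10.3 in controls (SD, n = 3 each), so it was low in every library labelled as lacking it. Reads per library ran from 1887978 to 12583868 in FST, 10739569 to 19405261 in PHT and 10795644 to 19326112 in PTGC. Before any result, 4 FST libraries stood apart. Eif2a mutant 1 and double mutant 2 had the fewest genes with reads (15157 and 15336). By chi-square per degree of freedom, Ptpmt1 knockout 3 (20.7 and 18.5) and control 3 (15.9 and 13.9) differed most from the other libraries of their groups. Both also had the most reads of their groups (12583868 and 11277025), and the part of depth was not tested. PTGC controls 2 and 3 differed more by this measure (39.6). Correlation ranked the FST libraries otherwise, with medians of 0.944 for Eif2a mutant 1 and 0.953 for double mutant 2. Ptpmt1 knockout 3 had 0.969, and control 3, at 0.976, lay above all Ptpmt1 knockouts. Labels do not say that libraries of a group came from separate animals, so p-values measure only the spread between these samples. The sex-linked genes showed the male pattern in 2 of 3 FST double mutants, in all 3 Eif2a mutants and all 3 Ptpmt1 knockouts, and in 1 of 3 controls. In PHT the male pattern was found in both double mutants, both Hri knockouts and 1 of 3 Ptpmt1 knockouts but in 0 of 2 controls, and the PTGC double mutant and control had 2 of 3 each. In such bulk samples fewer cells of a type and less RNA per cell cannot be told apart.

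The promoter windows below are shown as 1 gene for each of several successive steps of the pathway: uptake (Slc2a1), trapping (Hk2), commitment (Pfkl), the first ATP-making step (Pgk1), lactate formation (Ldha) and lactate transport (Slc16a3). Pfkl, Pgk1, Ldha and Slc16a3 passed the test in the FST line, while Slc2a1 and Hk2 did not. Each runs from 250 bases before to 50 after a RefSeq gene start in GRCm38.p6, 5′ to 3′ on the strand of the gene. Capitals mark ACGTG, a form of the core of the hypoxia response element, or its reverse complement CACGT. Other forms of that core were not searched. The E-box CACGTG holds ACGTG on both strands. The windows are Slc2a1 (chr4:119108495-119108794, plus strand), Hk2 (chr6:82774405-82774704, minus), Pfkl (chr10:78009758-78010057, minus), Pgk1 (chrX:106186850-106187149, plus), Ldha (chr7:46845554-46845853, plus) and Slc16a3 (chr11:120948817-120949116, plus).
Slc2a1: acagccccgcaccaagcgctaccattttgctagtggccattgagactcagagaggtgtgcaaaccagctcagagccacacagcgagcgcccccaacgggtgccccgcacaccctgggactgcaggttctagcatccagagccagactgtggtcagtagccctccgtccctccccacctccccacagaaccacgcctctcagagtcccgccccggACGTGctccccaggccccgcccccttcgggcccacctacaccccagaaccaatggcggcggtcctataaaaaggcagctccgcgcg
Hk2: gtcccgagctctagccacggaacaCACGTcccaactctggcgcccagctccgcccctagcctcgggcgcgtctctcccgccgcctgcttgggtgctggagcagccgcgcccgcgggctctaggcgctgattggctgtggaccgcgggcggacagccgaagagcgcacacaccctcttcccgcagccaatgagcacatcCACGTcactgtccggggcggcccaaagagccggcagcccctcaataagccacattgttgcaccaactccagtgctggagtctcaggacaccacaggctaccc
Pfkl: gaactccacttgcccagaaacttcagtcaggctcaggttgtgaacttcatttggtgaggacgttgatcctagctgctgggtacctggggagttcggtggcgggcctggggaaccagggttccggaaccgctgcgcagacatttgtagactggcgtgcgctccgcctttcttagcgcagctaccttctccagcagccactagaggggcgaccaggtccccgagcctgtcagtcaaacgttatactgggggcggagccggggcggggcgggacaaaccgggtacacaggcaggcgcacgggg
Pgk1: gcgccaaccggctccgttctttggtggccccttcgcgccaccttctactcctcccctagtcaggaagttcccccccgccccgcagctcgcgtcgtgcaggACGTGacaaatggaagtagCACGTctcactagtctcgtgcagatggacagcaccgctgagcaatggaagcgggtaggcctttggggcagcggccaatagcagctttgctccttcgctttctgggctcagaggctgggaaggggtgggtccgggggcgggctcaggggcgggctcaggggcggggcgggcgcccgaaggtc
Ldha: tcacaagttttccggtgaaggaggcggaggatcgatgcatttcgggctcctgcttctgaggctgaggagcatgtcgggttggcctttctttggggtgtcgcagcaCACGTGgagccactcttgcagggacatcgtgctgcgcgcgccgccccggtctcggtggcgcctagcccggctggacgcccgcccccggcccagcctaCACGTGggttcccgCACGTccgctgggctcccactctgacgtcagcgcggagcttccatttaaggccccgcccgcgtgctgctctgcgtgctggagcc
Slc16a3: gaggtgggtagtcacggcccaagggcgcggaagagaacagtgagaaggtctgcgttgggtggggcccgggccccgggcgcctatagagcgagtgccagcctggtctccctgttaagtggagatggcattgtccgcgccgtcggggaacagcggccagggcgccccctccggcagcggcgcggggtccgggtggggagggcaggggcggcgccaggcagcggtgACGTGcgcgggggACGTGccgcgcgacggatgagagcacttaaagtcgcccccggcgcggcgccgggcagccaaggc

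The Ldha window shown held 5 ACGTG matches on both strands together, 4 of them in a pair of CACGTG sites. The Pgk1, Hk2 and Slc16a3 windows held 2 ACGTG matches each, Slc2a1 held 1 and Pfkl none. Ldha has a second RefSeq window (chr7:46846832-46847131, plus strand), not shown, which held 0 matches. Of the 35 genes, 32 had at least 1 RefSeq window and 49 windows in all, and Slc2a3, Slc2a4 and Gpd1 were not matched. ACGTG lay in 46.9% of these windows, against 19.6% of all 32851 windows, and the GC content was 59.1% ± 7.89 against 53.8% ± 11.3 (SD over windows). CACGTG lay in 10.2% against 7.15%, the MEF2 element in 2.04% against 3.69%, and the C/EBP-ATF core TGATGNAAN in 0 of the 49 against 3.95%. These are matches of letters, with no test, and windows of 1 gene can overlap.

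Relative to exon length, the glycolytic enzymes of the trunk pathway led in the control libraries. In the FST control, Aldoa, the muscle aldolase, had 3052 ± 159 normalized counts per exonic kilobase, Ldha 2803 ± 154, Pkm, pyruvate kinase, 1926 ± 164, and Gapdh 1879.8 ± 204 (SD, n = 3 each). The ranges of Aldoa and Ldha overlapped, as did those of Pkm and Gapdh. Among the glucose transporters the widely expressed GLUT1 gene Slc2a1 stood at 1064 ± 284, far above the insulin-responsive muscle GLUT4 gene Slc2a4 at 59.3 ± 4.12, the high-affinity GLUT3 gene Slc2a3 at 47.2 ± 4.62 and the intracellular transporter gene Slc2a8 at 22.3 ± 1.59 per kilobase. Hk1, the widely expressed hexokinase, stood at 507 ± 59.8 per kilobase against 219 ± 23.4 for Hk2, the insulin-regulated muscle form. The lowest of the 35 was Gpd1, glycerol 3-phosphate dehydrogenase, with 4 to 41 reads in any library, so a change in it was not detectable at this depth unless large.

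Slc2a3, on chromosome 6 (chr6:122727809-122801640, minus strand, GENCODE M21), passed the test in more comparisons than any other of the 35, all of them in the FST line. In the FST line it had 649, 742 and 596 normalized counts in the double mutant, 745, 933 and 734 in the Eif2a mutant, 333, 294 and 327 in Ptpmt1 knockouts and 341, 376 and 309 in controls. All 6 libraries with the Eif2a mutation lay above all 6 without it. Against the control, the Eif2a mutant was higher by 1.23 ± 0.12 on the log2(value + 1) scale (SE, 2.34-fold, adjusted p = 0.000344, limma with Benjamini-Hochberg adjustment over 13896 genes).

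On the Ptpmt1 knockout background, Slc2a3 was higher in the double mutant than in the Ptpmt1 knockout by 1.05 ± 0.12 (SE, 2.08-fold, limma adjusted p = 0.000649), and higher than in the control by 0.95 ± 0.12 (1.93-fold, limma adjusted p = 0.00478). Between the double mutant and the Eif2a mutant it differed by -0.28 ± 0.12 (limma adjusted p = 0.587), and the Ptpmt1 knockout differed from the control by -0.10 ± 0.12 (limma adjusted p = 0.785). In the PHT line Slc2a3 had 751 and 595 counts in the double mutant, 652 and 755 in the Hri knockout, 734, 738 and 605 in Ptpmt1 knockouts and 596 and 739.5 in controls, with overlapping groups. In the PTGC line it had 693, 681 and 744 in the double mutant against 665, 799.8 and 765 in the control, again overlapping. The largest PHT or PTGC difference in Slc2a3 was -0.12 ± 0.19, for the PHT interaction (SE, limma adjusted p = 0.998).

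**Figure D1:**
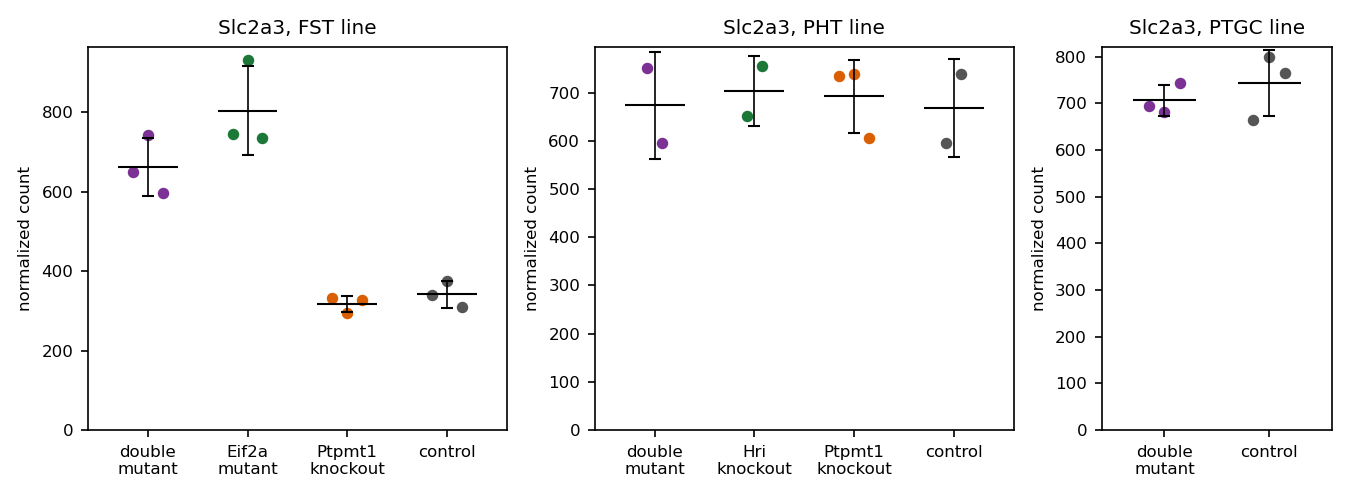
Slc2a3 normalized counts (y axis from 0) in each library of the FST, PHT and PTGC lines, by group; lines are group means and bars SD. In FST the 6 libraries with the Eif2a mutation sit between 596 and 933 and the other 6 between 294 and 376, while the groups of PHT and PTGC overlap.

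Slc2a1 was also high in the FST libraries with the Eif2a mutation, but 1 control library reached their level. It had 5171, 5295 and 4277 counts in the double mutant, 4882, 4876 and 4949 in the Eif2a mutant, 3356, 3395 and 2908 in Ptpmt1 knockouts and 3284, 3037 and 4874 in controls. Control 3 lay just below the lowest Eif2a mutant and above double mutant 3, while all 3 double mutants lay above all 3 Ptpmt1 knockouts. That difference, 0.61 ± 0.14 (SE), missed the threshold (limma adjusted p = 0.0564), as did the Eif2a mutant against the control (0.43 ± 0.14, limma adjusted p = 0.45). Without control 3 the Eif2a mutant exceeded the control by 0.63 (limma adjusted p = 0.0451) and the double mutant did by 0.63 (limma adjusted p = 0.0218). The double mutant against the Ptpmt1 knockout then gave 0.61 (limma adjusted p = 0.00488). The calls over all genes without control 3 are not given here. With control 3 and Ptpmt1 knockout 3 both left out, the calls over all genes rose in these contrasts. Slc2a4 and Slc2a8 passed in no comparison of any line.

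All 35 genes passed the filter on low values in each line, and the FST line gave members called at an adjusted p under 0.05 in 4 of its 6 comparisons. In the Ptpmt1 knockout against the control 2 members were lower and none higher, where 0.18% of all genes were called lower and 0.504% in either direction. The median log2 fold change of the members was -0.22, against -0.01 for all genes tested, and 28 of 35 lay below 0, against 51% of all genes. The 12 cardiomyocyte markers had a median of -0.29 in the same comparison, with none called, and their part in the members' median was not tested. The knockouts lay below the controls without overlap for 12 members (9.48% of all genes) and above them for 0 (9.61%). In the Eif2a mutant against the control 1 member (Slc2a3) was called, against 0.0288% of all genes called higher and 0.036% in either direction, with a median of 0.09. The groups did not overlap for 12 higher (8.37% of all genes) and 2 lower members (7.96%). In the double mutant against the Ptpmt1 knockout 9 members were called, all higher, where 0.446% of all genes were called higher and 0.878% in either direction. There the median of the members was 0.32, against -0.00 for all genes, and 30 of 35 lay above 0. The groups did not overlap for 20 higher (8.95% of all genes) and 1 lower member (8.87%). The double mutant against the control gave 1 higher member, Slc2a3, where 0.072% of all genes were called higher and 0.144% in either direction, and a median of 0.12. There the groups did not overlap for 12 higher (9.64%) and 6 lower members (9.87%). None was called between the double mutant and the Eif2a mutant (0.0072% of all genes) or for the interaction of Ptpmt1 loss and the Eif2a mutation (0.0216%), where 7 and 4 members had an unadjusted p under 0.05, against 8.14 and 7.06% of all genes. There edgeR called 0 and 0 members and DESeq2 1 and 0. Comparisons that share the Ptpmt1 knockout or the control libraries are not independent: a low value in the knockout enters both of its contrasts, with opposite sign.

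**Figure D2:**
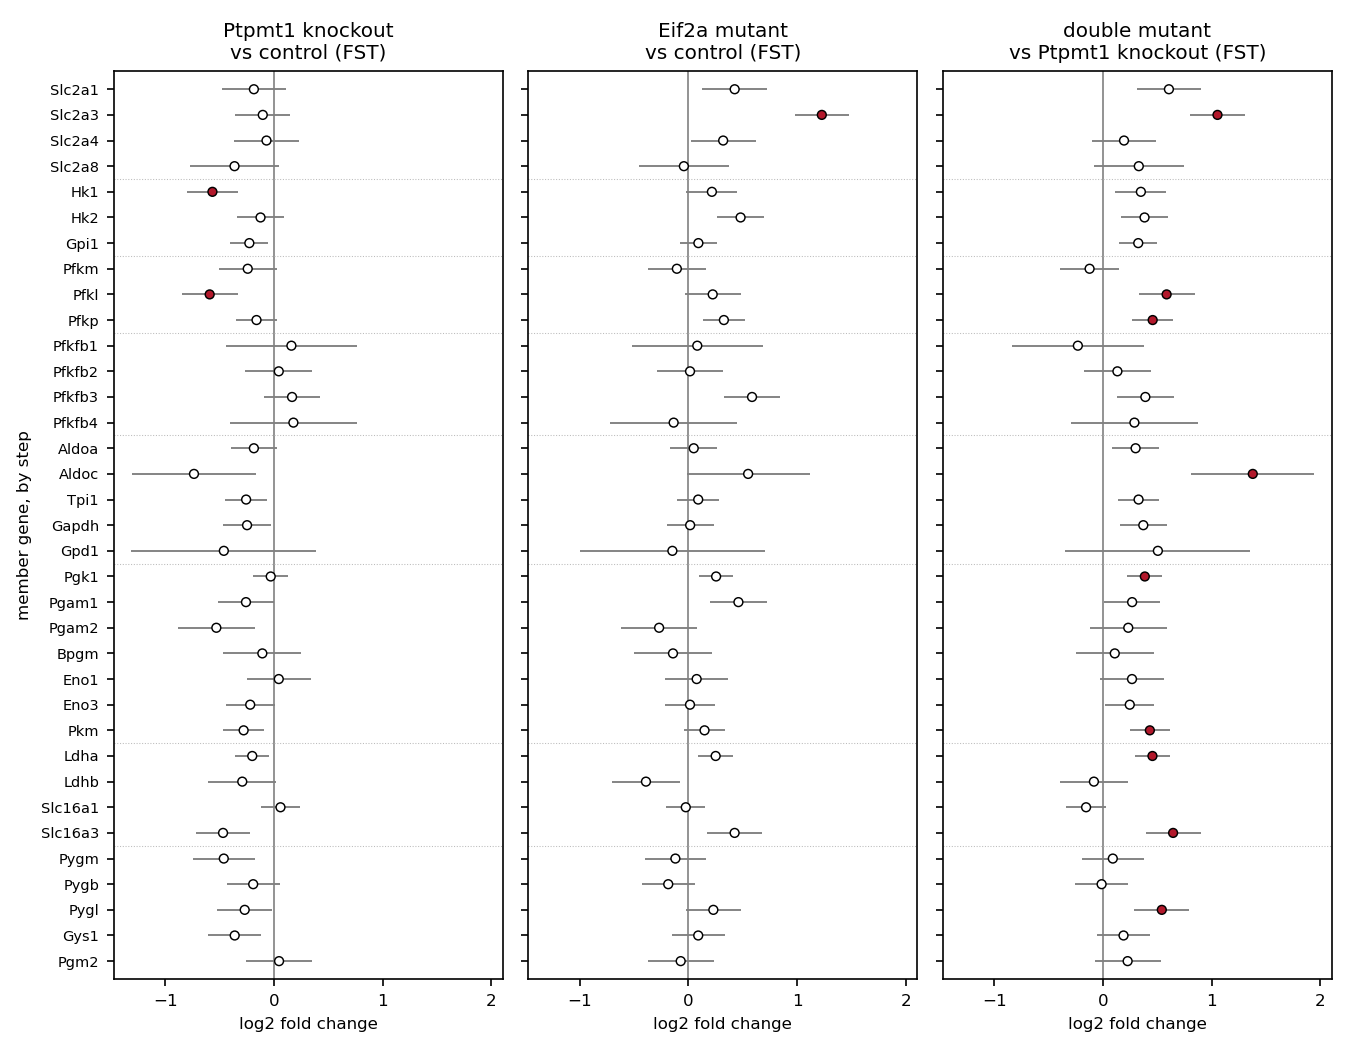
Log2 fold change (x axis, on the log2(value + 1) scale) of each of the 35 genes in 3 FST comparisons, ordered by step of the pathway; bars are 95% confidence intervals and filled points passed an adjusted p of 0.05. The Ptpmt1 knockout panel lies mostly left of 0 with Hk1 and Pfkl called, the Eif2a mutant panel has Slc2a3 called, and the double mutant panel lies mostly right of 0 with 9 genes called.

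At the hexokinase step Hk1 passed the test and Hk2 did not. Hk1 had 3873, 3999.7 and 3293 counts in the FST double mutant, 4954, 5187 and 4883 in the Eif2a mutant, 3389.7, 2560.0 and 2844 in Ptpmt1 knockouts and 4086, 3987 and 4916 in controls. All 3 Ptpmt1 knockouts were below all 3 controls, a difference of -0.57 ± 0.11 (SE, 0.676-fold, limma adjusted p = 0.0341). Hk2 had 1760.3, 1414 and 1523 counts in the double mutant, 1748, 1955 and 1755 in the Eif2a mutant, 1295, 1077 and 1226 in Ptpmt1 knockouts and 1228, 1225 and 1468 in controls. The knockouts overlapped the controls for Hk2 (-0.12 ± 0.10, limma adjusted p = 0.668). Its highest group mean was in the Eif2a mutant, whose libraries lay above every control (0.48 ± 0.10, limma adjusted p = 0.196).

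The ratio of Hk2 to Hk1 counts within a library was higher than in every control of the same line in each group that lacked Ptpmt1. In FST it was 0.454, 0.354 and 0.463 in the double mutant, 0.353, 0.377 and 0.359 in the Eif2a mutant, 0.382, 0.421 and 0.431 in Ptpmt1 knockouts and 0.301, 0.307 and 0.299 in controls. In PHT it was 0.404 and 0.392 in the double mutant, 0.312 and 0.355 in the Hri knockout, 0.362, 0.381 and 0.397 in Ptpmt1 knockouts and 0.317 and 0.331 in controls. In PTGC it was 0.463, 0.39 and 0.441 in the double mutant against 0.323, 0.326 and 0.316 in the control. The Eif2a mutant, which keeps Ptpmt1, also lay above its controls, and the Hri knockout overlapped them.

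The log2 ratio was higher than in the control by 0.48 in the FST double mutant, 0.26 in the Eif2a mutant, 0.44 in the FST Ptpmt1 knockout, 0.30 and 0.23 in the PHT double mutant and Ptpmt1 knockout, and 0.42 in the PTGC double mutant. The ratio was tested after its values were seen. Each difference is the extreme arrangement of its libraries, for which the exact two-sided permutation test can give no less than p = 0.1 with 3 against 3 or 3 against 2 libraries and p = 0.333 with 2 against 2, so none could reach 0.05. After adjustment over the 11 isoenzyme pairs of a comparison these p-values were 0.138 to 0.733 (exact permutation, Benjamini-Hochberg). Of the 11 pairs, 6 lay above and 2 below every control in the FST double mutant. The counts were 4 and 2 in the Eif2a mutant and 2 and 2 in the FST Ptpmt1 knockout. They were 3 and 2 in the PHT Ptpmt1 knockout, 2 and 3 in the PHT double mutant and 1 and 3 in PTGC. The rate among other gene pairs was not computed, so these counts have no background. The pairs are not independent, since Pfkl/Pfkm and Pfkp/Pfkm share a gene and all pairs share the control libraries. For Hk2/Hk1 the FST double mutant overlapped the Eif2a mutant (0.21, exact permutation p = 0.3). The PHT double mutant lay above the Hri knockout (0.26, exact permutation p = 0.333). The counts behind the ratio differed between groups. In the FST Ptpmt1 knockout Hk1 was low and Hk2 overlapped the controls. The FST double mutant overlapped the controls for Hk2 (mean 1566 against 1307) and for Hk1 (3722 against 4329). In PHT, Hk2 lay above both controls in the Ptpmt1 knockout (2332 to 2365 against 2128 to 2302) and the double mutant. Hk1 lay below both PHT controls in the knockout and overlapped them in the double mutant. In PTGC Hk2 was high, with 2708, 2485 and 2881 counts in the double mutant against 1926, 2181 and 2069 in the control and no overlap (0.39 ± 0.10 by limma, adjusted p = 0.162). Hk1 exons overlap those of the antisense gene Hk1os by 157 bases, and whether the counting used strand is not stated, so their reads cannot be told apart.

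**Figure D3:**
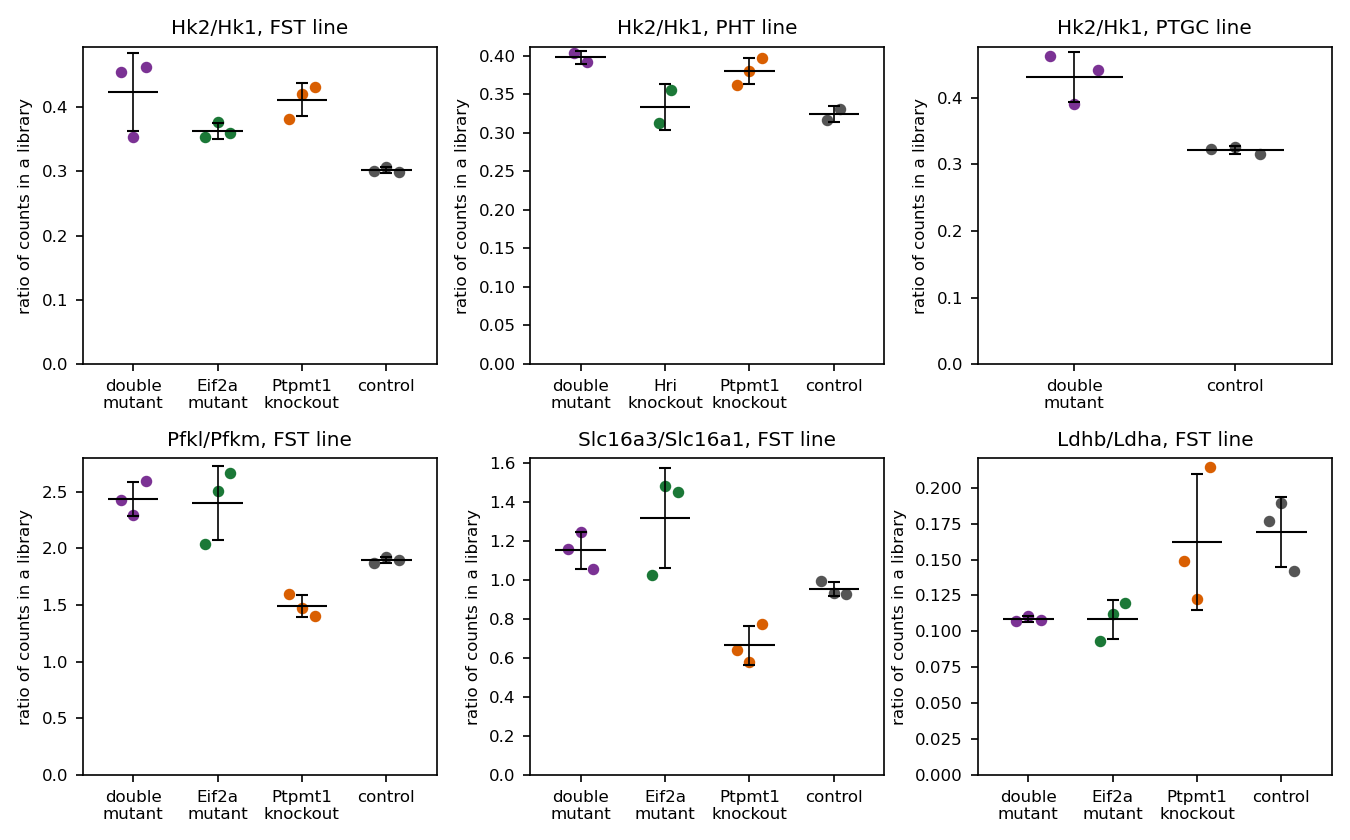
Ratio of the counts of 2 isoenzyme genes within each library (y axis from 0) by group; lines are means and bars SD. Hk2/Hk1 of every library that lacks Ptpmt1 lies above all controls of its line in FST, PHT and PTGC, and in FST Pfkl/Pfkm and Slc16a3/Slc16a1 are below the controls in the Ptpmt1 knockout and above them in both groups with the Eif2a mutation.

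Phosphofructokinase 1, the committing enzyme, has muscle (Pfkm), liver (Pfkl) and platelet (Pfkp) subunits, of which Pfkl and Pfkp passed the test in FST and Pfkm did not. Pfkl had 2248, 1927 and 2116 counts in the double mutant, 2259, 2568 and 2542 in the Eif2a mutant, 1523, 1091 and 1630.4 in Ptpmt1 knockouts and 2023, 2198 and 2084 in controls. The 3 knockouts lay below all other libraries. Pfkl was lower in the Ptpmt1 knockout than in the control by -0.59 ± 0.12 (SE, 0.664-fold, limma adjusted p = 0.0462) and higher in the double mutant than in the knockout by 0.59 ± 0.12 (1.5-fold, limma adjusted p = 0.0328), and the double mutant overlapped the control (-0.01 ± 0.12, limma adjusted p = 0.994).

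Pfkp had 3547, 3575 and 3495 counts in the double mutant against 2615, 2297 and 2850.1 in the Ptpmt1 knockout, with no overlap (0.46 ± 0.09, limma adjusted p = 0.0259). Its exons overlap those of Pitrm1 on the other strand by 748 bases. Pfkm, the muscle subunit, had 927, 839.7 and 816 counts in the double mutant, 955, 738 and 1164 in Ptpmt1 knockouts and 1080.3, 1144 and 1097 in controls, and passed in none of the FST comparisons. The within-library Pfkl/Pfkm ratio was 2.43, 2.29 and 2.59 in the double mutant, 2.04, 2.5 and 2.67 in the Eif2a mutant, 1.59, 1.48 and 1.4 in Ptpmt1 knockouts and 1.87, 1.92 and 1.9 in controls. Both groups with the Eif2a mutation thus lay above every control and the Ptpmt1 knockout below every control (exact permutation p = 0.1 each, the smallest possible; 0.138 to 0.275 after Benjamini-Hochberg adjustment over 11 pairs). In PHT and PTGC this ratio stayed between 1.56 and 2.02 in all libraries.

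The Pfkfb genes make and remove fructose 2,6-bisphosphate, the activator of phosphofructokinase 1, and none of the 4 passed in any comparison. Highest over the FST control was Pfkfb3, the inducible form with high kinase activity, which had 476, 438 and 481 counts in the FST double mutant, 421, 579.9 and 435 in the Eif2a mutant, 358, 321 and 387 in Ptpmt1 knockouts and 323, 332 and 292 in controls. Every library with the Eif2a mutation was above every library without it. The difference from the control was 0.59 ± 0.12 in the Eif2a mutant (limma adjusted p = 0.196) and 0.56 ± 0.12 in the double mutant (limma adjusted p = 0.104). Pfkfb1, a form known best from liver and muscle, had 59.4 and 76.2 counts in the PHT double mutant, 92.0 and 96.6 in the Hri knockout, 82.2, 83.4 and 79.0 in Ptpmt1 knockouts and 119.6 and 119 in controls. All 7 PHT mutant libraries were below both controls (double mutant against control -0.82 ± 0.21, limma adjusted p = 0.607). Pfkfb1 is X-linked and none of the PHT controls had the male pattern, against 2 of 2 double mutants, 2 of 2 Hri knockouts and 1 of 3 Ptpmt1 knockouts. The part of sex in this difference was not tested.

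Among the enzymes that split and oxidize the triose, Aldoc, the brain-type aldolase, passed at a low level. It had 86.4, 79.6 and 109 counts in the FST double mutant, 109, 82.5 and 68.2 in the Eif2a mutant, 43.0, 26.5 and 35.3 in Ptpmt1 knockouts and 65.8, 72.3 and 40.4 in controls. The double mutants and the Ptpmt1 knockouts did not overlap (1.38 ± 0.27, SE, 2.6-fold, limma adjusted p = 0.0259), and control 3 lay within the knockout range. The muscle form Aldoa had 12716, 11778 and 12301 counts in the double mutant against 9193, 9161 and 11715 in the Ptpmt1 knockout (0.30 ± 0.10, limma adjusted p = 0.193). Gpi1, glucose phosphate isomerase, had 6193, 5816 and 6194 counts in the double mutant against 4768, 4451 and 5352 in the Ptpmt1 knockout, with no overlap (0.32 ± 0.08, limma adjusted p = 0.074). Tpi1, triose phosphate isomerase, and Gapdh gave 0.33 ± 0.09 and 0.37 ± 0.10 in that contrast (limma adjusted p = 0.102 and 0.103). Ptpmt1 knockout 3 had the highest count of the 3 knockouts for Aldoa, Tpi1 and Gapdh, and without it each passed (limma adjusted p = 0.0199 for Aldoa, 0.00846 for Tpi1 and 0.0181 for Gapdh). Leaving that library out also raised the calls over all genes in the Ptpmt1 knockout against the control. The calls over all genes for the double mutant against the knockout without it are not given here.

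Among the ATP-making and following steps, Pgk1, phosphoglycerate kinase, had 2333, 2188 and 2369.9 counts in the FST double mutant, 1996, 2225 and 2206 in the Eif2a mutant, 1737, 1852 and 1687 in Ptpmt1 knockouts and 1711, 1833 and 1839 in controls. The knockouts overlapped the controls, and both groups with the Eif2a mutation lay above them. The double mutant exceeded the knockout by 0.39 ± 0.08 (SE, 1.31-fold, limma adjusted p = 0.0259). Pgk1 is X-linked, and its call, like those of other members, was lost with a sex term. Pkm had 10816, 10509.7 and 10738 counts in the double mutant, 9884, 11249 and 10869 in the Eif2a mutant, 7595, 7590.0 and 8632 in Ptpmt1 knockouts and 9115, 9210.0 and 10578 in controls. All 3 knockouts were below all other libraries, and the double mutant was higher than the knockout by 0.43 ± 0.09 (1.35-fold, limma adjusted p = 0.0302). Pkm counts do not separate its M1 and M2 splice forms, and its exons share 454 bases with Gm49759 on the same strand.

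Neither phosphoglycerate mutase gene passed. Pgam1, the widely expressed form, had 561, 579 and 485 counts in the FST double mutant, 906, 714 and 620.1 in the Eif2a mutant, 475, 418 and 454 in Ptpmt1 knockouts and 514, 527 and 568 in controls, and the Eif2a mutants lay above all other libraries (0.46 ± 0.12 against the control, limma adjusted p = 0.303). Pgam2, the muscle form, had 1014, 857 and 988 counts in the double mutant, 746, 1079 and 1129 in the Eif2a mutant, 790.0, 634 and 1057 in Ptpmt1 knockouts and 1117, 1201 and 1188 in controls. Every mutant library was below the controls except Eif2a mutant 3. The highest Pgam1 and the lowest Pgam2 of the Eif2a mutants both came from Eif2a mutant 1, a library with few genes detected.

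Of the enzymes, Ldha kept its call in the most alternatives. Ldha, the lactate dehydrogenase subunit that favours lactate formation (chr7:46841475-46855627, plus strand, GENCODE M21), had 11191, 11076 and 10937 counts in the FST double mutant, 11561, 10831 and 10703 in the Eif2a mutant, 8114, 8096 and 8004 in Ptpmt1 knockouts and 8931, 9035 and 9863 in controls. The 6 libraries with the Eif2a mutation lay above the controls and the 3 knockouts below them. The double mutant exceeded the Ptpmt1 knockout by 0.46 ± 0.07 (SE, 1.37-fold, limma adjusted p = 0.00887), while the knockout against the control gave -0.20 ± 0.07 (limma adjusted p = 0.25) and the Eif2a mutant against the control 0.25 ± 0.07 (limma adjusted p = 0.375). Ldhb, the heart subunit that favours lactate use, had 1198, 1229 and 1177 counts in the double mutant, 1075, 1217 and 1281 in the Eif2a mutant, 1210.0, 992 and 1717 in Ptpmt1 knockouts and 1581, 1708 and 1399 in controls. It was below every control in both groups with the Eif2a mutation (-0.37 ± 0.15 and -0.39 ± 0.15, limma adjusted p = 0.409 and 0.519).

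Slc16a3, the MCT4 transporter known for lactate export, had 1592, 1551 and 1239 counts in the FST double mutant, 1484, 1934 and 1785 in the Eif2a mutant, 897, 835 and 1067 in Ptpmt1 knockouts and 1283, 1236 and 1334 in controls. The knockouts were below all other libraries, and the double mutant exceeded them by 0.65 ± 0.12 (SE, 1.56-fold, limma adjusted p = 0.0183). Slc16a1, the MCT1 transporter known for lactate uptake in heart, passed in no comparison. Their within-library ratio Slc16a3/Slc16a1 was 1.16, 1.24 and 1.06 in the double mutant, 1.02, 1.48 and 1.45 in the Eif2a mutant, 0.642, 0.579 and 0.775 in Ptpmt1 knockouts and 0.996, 0.935 and 0.93 in controls. The groups with the Eif2a mutation lay above and the Ptpmt1 knockout below every control (exact permutation p = 0.1 each, the smallest possible).

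**Figure D4:**
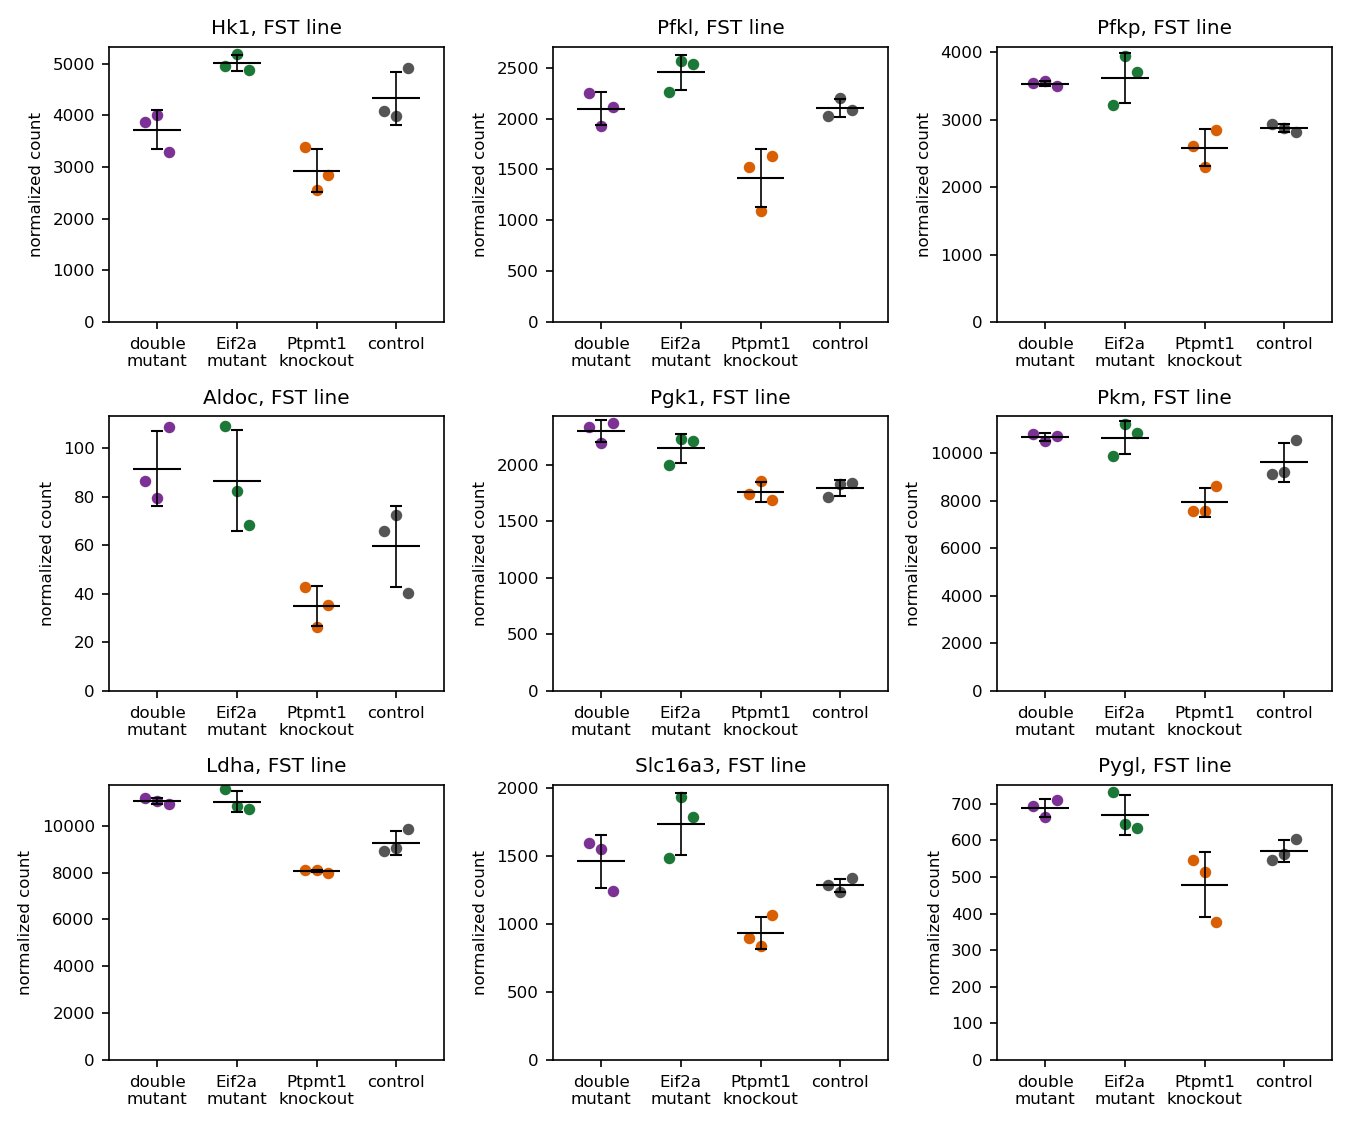
Normalized counts (y axis from 0) in each FST library of 9 genes called in at least 1 comparison beside Slc2a3; lines are group means and bars SD. For 8 of the 9, all but Hk1, the double mutant stands above the Ptpmt1 knockout without overlap, and for Hk1, Pfkl, Pkm, Ldha, Slc16a3 and, by under 1 count, Pygl the knockout also lies below every control.

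Of the glycogen genes only Pygl, the liver glycogen phosphorylase, passed. It had 693, 663 and 711 counts in the FST double mutant, 733, 643 and 633 in the Eif2a mutant, 546, 513 and 378 in Ptpmt1 knockouts and 546, 562 and 603 in controls. Both groups with the Eif2a mutation were above every library without it, and the double mutant exceeded the knockout by 0.54 ± 0.12 (SE, 1.46-fold, limma adjusted p = 0.0459). Ptpmt1 knockout 3 had the lowest Pygl count, and without it the difference was 0.38 (limma adjusted p = 0.0465). The muscle and brain phosphorylases gave 0.09 ± 0.13 (Pygm) and -0.01 ± 0.11 (Pygb) in that contrast, and glycogen synthase Gys1 0.19 ± 0.12 (limma adjusted p = 0.804, 0.974 and 0.494). The symbol Pgm2 has been exchanged between 2 phosphoglucomutase genes in RefSeq, so which of them this row holds is not certain, and it passed in no comparison.

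How firmly these FST calls hold differed by gene. Slc2a3 kept its call in all 23 alternative analyses of each of its 3 contrasts, with a largest limma, edgeR or DESeq2 adjusted p of 0.041. In the double mutant against the Ptpmt1 knockout, Ldha kept its call in 21 of 23, Aldoc in 19, Pgk1 and Slc16a3 in 17, Pfkp in 15, Pfkl in 14, Pkm in 12 and Pygl in 11. In the Ptpmt1 knockout against the control, Hk1 kept its call in 12 of 23 and Pfkl in 8. With a sex term, 3 of the 9 members remained called (Slc2a3, Ldha and Aldoc), and leaving out Eif2a mutant 1 and double mutant 2, the libraries with few genes, left 5 (Slc2a3, Ldha, Aldoc, Pgk1 and Slc16a3). Leaving out Ptpmt1 knockout 3 raised the number of lower members in the knockout against the control to 13, when 857 of all genes were called.

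In FST the summed red cell markers made up 0.0114 to 0.0178% of the signal in the double mutant, 0.0185 to 0.0265% in the Eif2a mutant, 0.0109 to 0.0455% in the Ptpmt1 knockout and 0.0111 to 0.0455% in the control. Fibroblast markers ranged from 0.13 to 0.175% in the double mutant and 0.156 to 0.301% in the Ptpmt1 knockout, and the summed endothelial markers from 0.154 to 0.157% in the double mutant, 0.143 to 0.158% in Ptpmt1 knockouts and 0.136 to 0.159% in controls. Of the 10 endothelial markers only Eng, a receptor, passed in FST, and the list's median was 0.02 for the double mutant against the knockout and -0.04 against the control. Eng was higher in the double mutant than in the knockout (0.50 ± 0.08, limma adjusted p = 0.00887), as it was against the control (0.44 ± 0.08, limma adjusted p = 0.0443). The summed mural cell markers made up 0.0635 to 0.0754% in the double mutant, 0.0609 to 0.0764% in the Eif2a mutant, 0.0461 to 0.0605% in Ptpmt1 knockouts and 0.0641 to 0.0738% in controls, so the 3 knockouts lay below all other libraries. Of the 7 tested of 8 mural markers, Cspg4, a proteoglycan gene, was lower in the Ptpmt1 knockout than in the control (-0.53 ± 0.09, limma adjusted p = 0.0153). Their part in the results was not tested.

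In the PHT line no member passed in any of the 6 comparisons, where 0.0267% (double mutant against control), 0.02% (double mutant against Hri knockout), 0.327% (double mutant against Ptpmt1 knockout), 0.02% (Hri knockout against control), 0.301% (Ptpmt1 knockout against control) and 0.12% (interaction) of 14965 genes were called. The members with an unadjusted p under 0.05 numbered 2, 3, 4, 0, 2 and 1 in the same order, against 6.58, 5.83, 8.29, 3.24, 4.79 and 4.64% of all genes. By edgeR the count was 0 in all 6, and by DESeq2 it was 1 in the double mutant against the Ptpmt1 knockout (Bpgm) and 0 elsewhere. The members' median was -0.09 in the Ptpmt1 knockout against the control, with 26 of 35 below 0, and 0.11 in the double mutant against the Ptpmt1 knockout, with 29 above 0. All genes tested had medians of 0.00 and -0.01 there.

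For Ldha the PHT counts were 15316 and 18709 in the double mutant, 15078 and 17746 in the Hri knockout, 14354, 13243 and 14229.7 in Ptpmt1 knockouts and 15985 and 15357 in controls. The 3 knockouts lay below all other libraries, with 0.28 ± 0.11 for the double mutant against the knockout (95% interval 0.05 to 0.51, limma adjusted p = 0.454). For Pfkl they were 3367 and 3678 in the double mutant, 3636 and 3480.1 in the Hri knockout, 3302, 2917 and 3146 in Ptpmt1 knockouts and 3837 and 3535 in controls. The knockouts were again below all others (-0.24 ± 0.08 against the control, limma adjusted p = 0.799). Hk1 had 6764 and 6345 counts in the double mutant, 6443 and 6506 in the Hri knockout, 6438, 6184 and 5963 in Ptpmt1 knockouts and 6715 and 6953 in controls, and the knockouts were below both controls (-0.14 ± 0.08, limma adjusted p = 0.999). Among the other genes called in FST, the PHT knockouts lay below both controls for Pgk1, Pkm and Slc16a3. They overlapped the controls for Slc2a3, Pfkp, Aldoc and Pygl, and none of these genes passed in PHT. Over the 35 members the knockouts lay below both controls for 12 and above both for 1. The share of all genes that did so is not given here. Pgk1 is X-linked, and the male pattern was found in 0 of 2 PHT controls and 1 of 3 Ptpmt1 knockouts. The part of sex in its difference was not tested.

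Bpgm, the mutase that makes bisphosphoglycerate and is abundant in red cells, had the largest positive member difference in PHT. It had 390.2 and 500.0 counts in the double mutant, 434 and 294 in the Hri knockout, 298, 291 and 220.1 in Ptpmt1 knockouts and 418 and 289 in controls. The double mutant lay above the Ptpmt1 knockout without overlap (0.72 ± 0.20, limma adjusted p = 0.212; DESeq2 adjusted p = 0.0461). Red cell markers, of which 11 of 12 are listed and had reads, made up 0.0947 to 0.161% of the signal in the double mutant, 0.0739 to 0.124% in the Hri knockout, 0.0147 to 0.0616% in the Ptpmt1 knockout and 0.0719 to 0.0911% in the control. The haemoglobin gene Hbb-bs was higher in the double mutant than in the Ptpmt1 knockout by 2.28 ± 0.39 (SE, limma adjusted p = 0.0158). The part of red cell RNA in the Bpgm difference was not tested.

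In the PTGC line no member passed between the double mutant and the control, where 0.743% of 14128 genes were called. There 5 members had an unadjusted p under 0.05, against 11.5% of all genes, edgeR called 0 and DESeq2 1 (Hk2, adjusted p = 0.0449). The median over members was -0.03, with 19 of 35 below 0. The double mutants were above the controls without overlap for 5 members (8.98% of all genes) and below them for 10 (9.05% of all genes). Those below included Ldha with 14416, 13470.1 and 15519.8 counts in the double mutant against 16553, 15848 and 16664 in the control (-0.18 ± 0.10, limma adjusted p = 0.492). They also included Pygl with 762, 761 and 777 counts in the double mutant against 945, 900.2 and 1159.7 in the control (-0.38 ± 0.11, limma adjusted p = 0.267).

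Few related genes outside the 35 passed the test. Of 16 hypoxia-inducible genes outside glycolysis, none passed in the FST comparisons, although their median was 0.38 in the Eif2a mutant against the control, 0.28 in the double mutant against the Ptpmt1 knockout and 0.04 in the Ptpmt1 knockout against the control. None passed in any comparison among the 12 to 13 tested of 13 pentose phosphate genes, 22 to 23 of 24 glycogen genes, 7 of 8 hexosamine genes, 25 to 26 of 26 regulators of glucose use and 14 to 17 of 24 other isoenzymes and transporters. Of 4 tested of 8 gluconeogenic genes, Pck2, the mitochondrial PEP carboxykinase, passed. It averaged 278 ± 13.5 counts in the FST double mutant, 265 ± 10.99 in the Eif2a mutant, 568 ± 135 in Ptpmt1 knockouts and 295 ± 30.6 in controls (SD, n = 3 each). It was higher in the Ptpmt1 knockout than in the control by 0.92 ± 0.14 in FST and 0.84 ± 0.13 in PHT (limma adjusted p = 0.00548 and 0.00815). The double mutant against the Ptpmt1 knockout gave -1.01 ± 0.14 in FST and -0.89 ± 0.13 in PHT (limma adjusted p = 0.00379 and 0.00500). In PTGC, Pck2 was higher in the double mutant than in the control by 1.45 ± 0.11 (limma adjusted p = 1.95e-05). Vegfa, the vascular growth factor gene, was higher in the PTGC double mutant than in the control by 0.56 ± 0.11 (limma adjusted p = 0.0352), the one hypoxia-inducible gene of the list to pass in any comparison.

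Eno1, the widely expressed enolase, cannot be read in the same way, because its counts may be shared with a near-identical copy. The longest transcript of Eno1b matches that of Eno1 at 99.5% of 1652 aligned bases (GENCODE M21, BLASTN). Eno1b fell into separate classes of libraries: it had 127 to 832 counts in 5 libraries and 0 to 12.5 in the other 22. The 5 were Eif2a mutants 2 and 3 in FST, with 135 and 127 counts, and Hri knockout 2, Ptpmt1 knockout 3 and control 2 in PHT, with 832, 737 and 816 counts. Eno1 itself had 13252, 11786 and 13350.5 counts in those 3 PHT libraries and 13792 to 17063 in the other 6. In FST, Eno1 had 4024 and 3760.4 counts in Eif2a mutants 2 and 3 and 5042 in Eif2a mutant 1, which had 2.54 counts of Eno1b. FST controls 1 and 2, with 0.823 and 0 counts of Eno1b, had lower Eno1 still (3410.4 and 3684), and Eno1b made up 3.24 and 3.27% of the summed counts in Eif2a mutants 2 and 3. Eno1 passed in no comparison, and how such reads were divided is not stated, so its values are uncertain. The cause of the Eno1b classes was not tested.

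**Figure D5:**
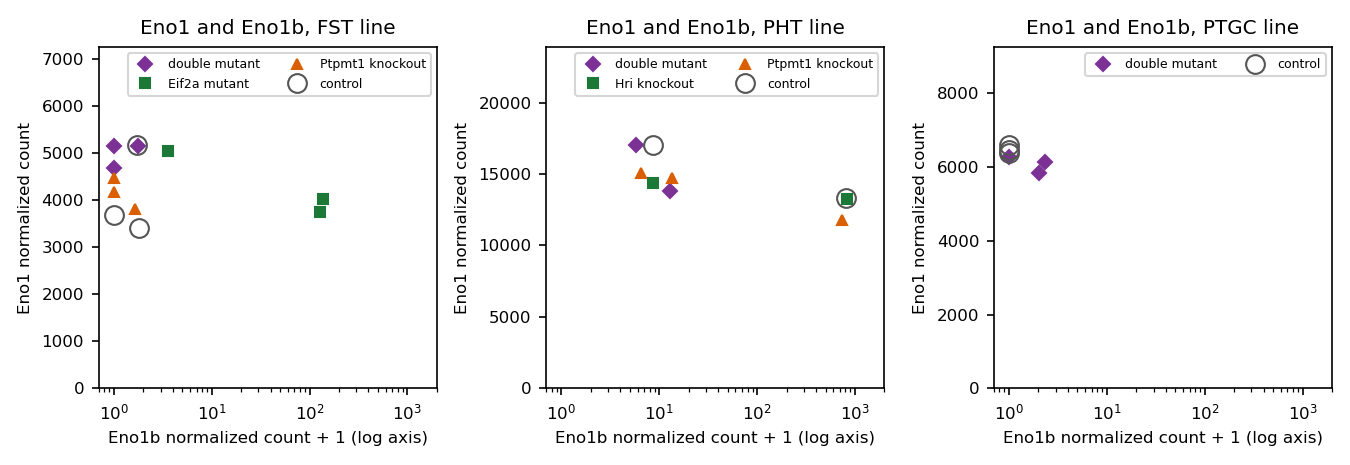
Eno1 normalized counts (y axis from 0) against Eno1b normalized counts + 1 (x axis, log scale) in each library of the FST, PHT and PTGC lines; symbols are groups and controls are open circles. In 5 libraries of FST and PHT Eno1b lies above 100, in 22 it lies at or below 12.5, and the 3 such PHT libraries hold the lowest Eno1 counts of that line.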

How the data were processed

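RNA-seq libraries were made with a ribosomal RNA depletion kit, per the labels' protocols. Named in the submitters' processing notes, with no role given, are STAR 2.5.3a, DESeq2 1.12.4 and the build mm10. The counting program, annotation and strand setting were not found in the sources used here. The deposited tables hold 1 signal value per gene and library, which the authors normalized: the steps between low values show read counts divided by 1 factor per library. Whole reads were recovered by dividing each column by its smallest step (100% of values whole within 0.1). Values were tested as log2(value + 1) with limma 3.58.1 (R 4.3.3, trended prior), 1 model per line, with Benjamini-Hochberg adjustment over all genes that reached 10 in as many libraries as the smallest group, at a threshold of 0.05. Because the unit is not a count, edgeR 4.0.16 and DESeq2 1.42.0 on the recovered reads are alternatives. The other alternatives were log offsets of 0.5 and 5, no filter, quantile normalization, a robust prior, fits of only the groups compared, a sex term, leaving out each library and leaving out pairs of libraries. The model was tested on simulated data.

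Every one of the 35 genes may be named, with Ptpmt1 and up to 4 called genes of each related list. The members and lists were chosen with earlier results of these data known. Isoenzyme ratios are ratios of deposited signal values within 1 library, and their exact permutation tests were added after the data were seen. Tables were normalized separately, so normalized levels are compared only within a line. The FST libraries were the shallowest, which limits the precision of low genes there. A called gene of the red cell marker list is not reported here.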

Additional observations from a re-analysis of the deposited data

How the results depend on the processing

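No result of the 35 genes changed sign among those called. The number of genes of the set called in the FST line depended on the setting, and the call of Slc2a3 did not in any of 23 alternatives of its 3 contrasts. With DESeq2 on recovered reads the count was 4 in the Eif2a mutant against the control (1 with limma), 7 in the Ptpmt1 knockout against the control (2 with limma), 1 in the double mutant against the Eif2a mutant (0 with limma), 14 in the double mutant against the Ptpmt1 knockout (9 with limma) and 4 in the double mutant against the control (1 with limma). Over all genes DESeq2 called 47, 353, 22, 317 and 93 in these contrasts, where limma called 5, 70, 1, 122 and 20. DESeq2 also gave 1 in the PHT double mutant against the Ptpmt1 knockout and 1 in PTGC, where limma gave 0, with 105 and 179 of all genes by DESeq2 and 49 and 105 by limma. Leaving out control 3 and Ptpmt1 knockout 3, chosen after seeing the data, gave 5, 10, 15 and 6 in the Eif2a mutant against the control, the Ptpmt1 knockout against the control, the double mutant against the Ptpmt1 knockout and the double mutant against the control, where the calls over all genes were 102, 688, 555 and 198. Leaving out the 2 libraries with few genes gave 0 in the Ptpmt1 knockout against the control and 5 in the double mutant against the Ptpmt1 knockout. Those contrasts gave 0 and 4 when only the 2 groups were fitted, and 0 and 3 with a sex term. The Ptpmt1 knockout against the control gave 1 with an offset of 0.5 and 0 with no filter. Leaving out 1 library at a time, the counts ranged from 0 to 13 in the Ptpmt1 knockout against the control, 1 to 2 in the Eif2a mutant against the control, 2 to 13 in the double mutant against the Ptpmt1 knockout, 1 to 2 in the double mutant against the control and 0 to 2 in PTGC. The 13 in the Ptpmt1 knockout contrasts came without Ptpmt1 knockout 3 and the 2 in PTGC without control 2. Apart from DESeq2 and the removal of both control 3 and Ptpmt1 knockout 3, few settings have calls over all genes beside them here. The other member counts, including 13 in the double mutant against the Ptpmt1 knockout, therefore lack that background. Over all genes the Ptpmt1 knockout contrast called 70 genes, 21 with a sex term and 857 without Ptpmt1 knockout 3. The cause was not tested. No paired analysis was possible because the labels give the groups no shared replicate numbers, and the numbers used here follow accession order.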

Other observations

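The muscle and widely expressed phosphoglycerate mutases stood in another proportion in the PHT line than in the other lines. The within-library ratio of Pgam2 to Pgam1 was 0.525 to 0.705 over all 9 PHT libraries, controls included, against 2.09 to 2.28 in FST controls and 1.97 to 2.1 in PTGC controls. By median reads per library, Pgam1 had 2805 in PHT and 872.5 in PTGC, against 1743 and 1725.5 for Pgam2. Gapdh (32872 and 11487), Pgk1 (8619 and 2848.5) and Eno1 (12761 and 5907.5) also had more reads in PHT. Aldoa (20223 and 17177.5) and Ldha (14224 and 14803.5) differed less. The cause was not tested. The lines were processed as separate tables, so line and processing cannot be told apart. Within PHT, the ratio of the phosphofructokinase 2 genes Pfkfb1 and Pfkfb2 was 0.153 and 0.216 in the double mutant, 0.256 and 0.322 in the Hri knockout, 0.207, 0.243 and 0.25 in Ptpmt1 knockouts and 0.376 and 0.372 in controls, so that all 7 mutant libraries lay below both controls. The FST ratio of Ldhb to Ldha, the heart over the muscle lactate dehydrogenase gene, was 0.107, 0.111 and 0.108 in the double mutant, 0.0929, 0.112 and 0.12 in the Eif2a mutant, 0.149, 0.123 and 0.215 in Ptpmt1 knockouts and 0.177, 0.189 and 0.142 in controls. The 6 libraries with the Eif2a mutation lay below all 6 without it.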
